A study of Mus musculus with 38 samples.

Results

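The genes described here are Mapt, which encodes tau, together with 4 further genes for microtubule-associated proteins (Map1a, Map1b, Map2 and Map4) and 5 genes for kinases that phosphorylate tau or for their activator (Gsk3a, Gsk3b, Cdk5, Cdk5r1 and Mark1). They were taken by Ensembl identifier and mouse symbol, without regard to their values, and make up 10 of the 48709 genes counted in the hippocampus of 38 C57BL/6 mice. APPPS1ΔE9 mice carry transgenes for APP with the Swedish mutation and presenilin 1 lacking exon 9. These mice and WT mice received chow with placebo or with anle138b, a small molecule that modulates the aggregation of proteins. The pre-plaque group, named for chow begun before plaques formed and fed for 4 months, was examined at 6 months of age. It held 4 mice in each combination of genotype and chow. The paper counted plaques in APPPS1ΔE9 mice of this group too, fewer of them on anle138b. In the post-plaque group the chow began at 6 months of age. The post-plaque group, examined at 10 months, held 5 WT mice on placebo, 5 WT mice on anle138b, 5 APPPS1ΔE9 mice on placebo and 7 APPPS1ΔE9 mice on anle138b. The promoter of the transgenes is not given in the sources used here, and each library came from hippocampal tissue of a single mouse.

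Tau and the other microtubule-associated proteins bind along the outside of microtubules and stabilise or space them. Tau is best known from axons, and MAP2 from the dendrites and cell bodies of neurons. GSK3α and GSK3β, CDK5 with its activator p35 (the product of Cdk5r1) and MARK1 add phosphate groups to tau, which loosens its hold on microtubules. In Alzheimer's disease, tau that carries too many of these groups forms the tangles found beside amyloid plaques. RNA counts show neither phosphorylation nor the amount of protein.

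The libraries held 15847985 to 31895808 counted reads (median 24530658), and every one of the 10 genes passed the filter on low counts in all comparisons. App, the gene raised by the transgene, stood at 1506 to 1809 CPM (read counts scaled to a common library size) in the 18 WT mice and at 3228 to 4318 CPM in the 20 APPPS1ΔE9 mice, with no overlap. For the 4 WT mice on placebo at 6 months another label names the transgenic genotype, and their App level lay among that of the other WT mice. All 9 markers of neurons had reads in every mouse. Nearly all WT mice were sequenced on other lanes than the APPPS1ΔE9 mice, so lane and genotype cannot be told apart, and 12 of the 38 mice had low counts from Y-linked genes although all are said to be male: 11 of them were WT and 1 was APPPS1ΔE9. Markers of the choroid plexus, the tissue that secretes cerebrospinal fluid, separated the mice at 6 months. The mice at 10 months were divided by the level of Dsp, a marker of dentate granule cells. Prox1, another such marker, the summed oligodendrocyte markers, and Gad1 and Gad2 of inhibitory neurons separated the same mice. The sum of all 9 neuronal markers did not. The values of these markers are given beside the results they move with.

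Map2, Mark1 and Map4 separated the same mice at 10 months, Map2 and Mark1 in the same direction, and the sequence before the annotated starts of these 2 genes is shown for that reason. Both windows come from RefSeq (GRCm38.p6), read 5′ to 3′ on the gene's strand, and leave out bases inside an annotated gene. Capitals mark the GC box GGGCGG or its reverse complement CCGCCC, which is bound by Sp1-type factors.
Map2, chr1:66175079-66175272, + strand: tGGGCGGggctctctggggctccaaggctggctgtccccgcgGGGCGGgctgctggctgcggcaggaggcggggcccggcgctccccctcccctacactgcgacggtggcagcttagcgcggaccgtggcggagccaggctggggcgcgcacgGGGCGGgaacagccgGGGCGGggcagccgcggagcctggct
Mark1, chr1:184999571-184999799, − strand: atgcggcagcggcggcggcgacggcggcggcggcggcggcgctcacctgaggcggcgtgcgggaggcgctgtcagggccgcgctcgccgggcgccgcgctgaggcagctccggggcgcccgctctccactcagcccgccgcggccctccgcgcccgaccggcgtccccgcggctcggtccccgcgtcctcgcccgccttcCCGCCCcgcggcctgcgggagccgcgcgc
The Map2 window of 194 bases held 4 GC boxes at a G+C content of 79.4%, and the Mark1 window of 229 bases held 1 at 85.2%. A GC box on either strand was present in 10756 of 32851 RefSeq promoters (32.7%, 250 bases before the start). Neither window held the TATA box TATAAA, present in 12.4% of promoters, or the cyclic AMP response element TGACGTCA, present in 1.55%. A match is a run of letters, not a bound site.

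In GRCm38 (GENCODE M21), Mapt lies on chromosome 11 at 104231390-104332090 (+ strand) and shares that chromosome with Cdk5r1 (80477023-80481184, +). Map2 (66175273-66442583, +) and Mark1 (184896789-184999570, −) lie on chromosome 1. Map1a is on chromosome 2 (121289600-121310832, +), Cdk5 on chromosome 5 (24418241-24423530, −), Gsk3a on chromosome 7 (25228258-25237851, −), Map4 on chromosome 9 (109931460-110083955, +), Map1b on chromosome 13 (99421446-99516540, −) and Gsk3b on chromosome 16 (38089001-38246084, +). Counts were made over whole genes, so isoforms such as those of Mapt that differ in the number of tubulin-binding repeats are not separated. Map1a overlaps Ppip5k1 on the other strand, whose own count came to 11.2% of that of Map1a. Since the use of strand in counting is not given in the sources used here, reads from the shared stretch cannot be told apart. The overlapping genes of Gsk3a and Map4 came to 1.97% and 1.27%, and those of the other members to 0.05% at most.

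Among the levels, 4 of the 5 genes for microtubule-associated proteins stood above all the kinases. In TPM (counts per length of merged exons, scaled to a common sum; mean ± SD over 38 mice) Map1a stood highest at 446 ± 38.4, followed by Map2 at 331 ± 47.3, Mapt at 283 ± 16.3 and Map1b at 280 ± 30.5. Cdk5r1 had 229 ± 12.97, Cdk5 207 ± 11.6, Map4 198 ± 20.5 and Gsk3a 167 ± 10.6 TPM. Gsk3b, at 81.6 ± 4.94 TPM, and Mark1, at 59.2 ± 5.62 TPM, were lowest. Mapt exceeded Map1b in 22 of 38 mice and Cdk5 exceeded Map4 in 24 of 38, so these neighbours do not differ beyond their spread. The other neighbours kept their order in 32 to 38 of 38 mice. The order rests on the length used: merged exons came to 16449 bases for Map2 and 15143 for Map4, but their longest transcripts to 6258 and 6091 bases. Per length of the longest transcript, Map2 came first at 683 ± 97.5 TPM and Map4 second at 385 ± 39.1 TPM, ahead of Map1a at 360 ± 29.9 and Mapt at 319 ± 17.3, and 3 of the 10 genes kept their place.

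**Figure D1:**
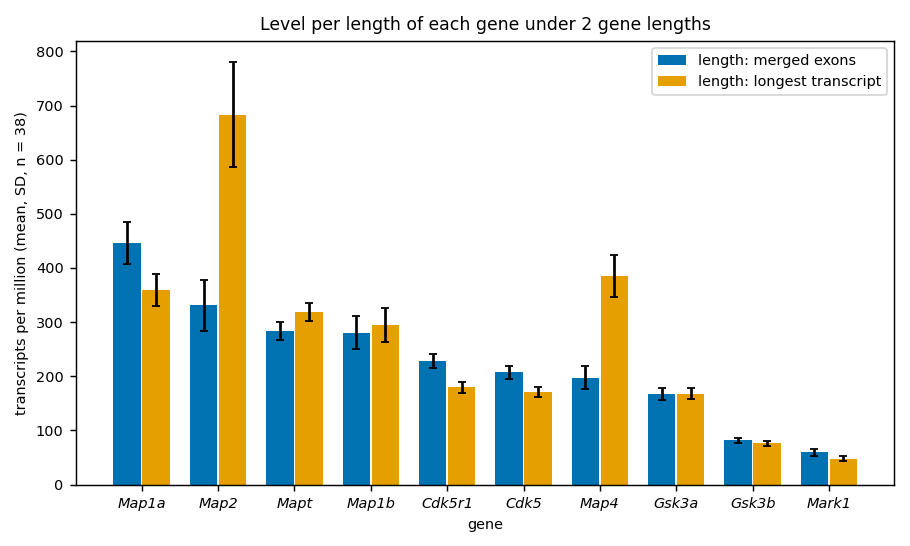
Mean level of each of the 10 genes over the 38 mice, in TPM, per length of merged exons (blue bars) and of the longest transcript (orange bars), with the SD as error bars. Map2 and Map4 stand at 331 and 198 TPM by merged exons and at 683 and 385 TPM by longest transcript, and the other genes move less.

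Tau RNA was nearly level across genotype, chow and age. At 6 months, Mapt had 536, 501, 523 and 558 CPM in the placebo-treated WT mice and 521, 488, 522 and 532 CPM in the anle138b-treated WT mice. It had 539, 592, 580 and 544 CPM in the placebo-treated APPPS1ΔE9 mice and 504, 534, 504 and 518 CPM in the anle138b-treated ones. The 2 highest values at 6 months belonged to APPPS1ΔE9 mice on placebo. All 4 of these mice lay above the APPPS1ΔE9 mice on anle138b, and their range overlapped that of the WT mice on placebo. At 10 months the 5 placebo-treated WT mice had 500, 511, 498, 536 and 525 CPM and the 5 anle138b-treated WT mice 538, 547, 528, 537 and 511 CPM. The placebo-treated APPPS1ΔE9 mice had 520, 554, 508, 521 and 529 CPM, and the 7 anle138b-treated ones ran from 510 over a median of 530 to 570 CPM. All 4 groups at 10 months overlapped.

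**Figure D2:**
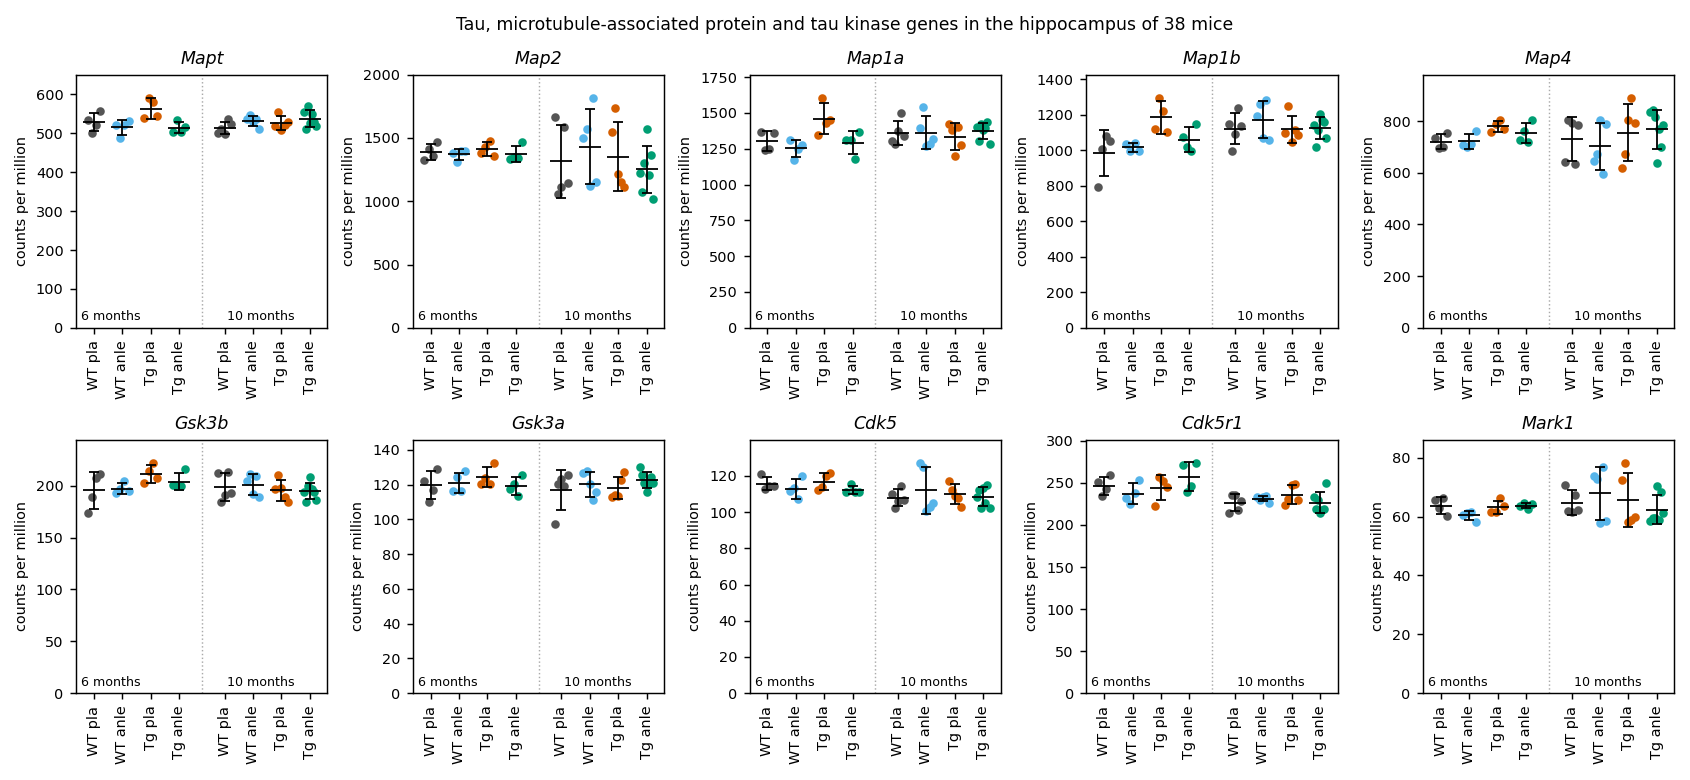
Normalised read counts (CPM) of the 10 genes by group, with a point for each mouse, a line at the group mean and error bars of 1 SD; WT and Tg stand for WT and APPPS1ΔE9 mice, pla and anle for placebo and anle138b. Mapt lies between 488 and 592 CPM in all 38 mice, while Map2 ranges from 1021 to 1819 CPM at 10 months.

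None of the 10 genes passed the threshold (edgeR's quasi-likelihood test, Benjamini-Hochberg adjusted p under 0.1 over all tested genes) in any of the 8 comparisons of 2 groups, which ask whether the transgene or the compound alters these RNAs at either age. Of the 80 values, 5 had an unadjusted p under 0.05, the smallest adjusted p was 0.354, and DESeq2 called none either. These 5 were 2 members for genotype on placebo at 6 months, where 11.1% of all genes had such a p, and 3 for chow in APPPS1ΔE9 mice at 6 months, where 13.1% had. In the other 6 comparisons no member did, where the shares of all genes were 5.64% for genotype on anle138b at 6 months, 1.85% for chow in WT mice at 6 months, 4.1% and 5.78% for genotype on placebo and on anle138b at 10 months, and 1.25% and 1.48% for chow in WT and in APPPS1ΔE9 mice at 10 months. Few of all tested genes were called in the same comparisons, 0.0715% for APPPS1ΔE9 against WT mice on placebo at 6 months, 0.047% on anle138b at 6 months, 0.324% on placebo at 10 months and 0.723% on anle138b at 10 months. For anle138b against placebo, 0.0529% were called in APPPS1ΔE9 mice at 6 months and 0% in the other 3 comparisons. For Mapt the log2 difference between APPPS1ΔE9 and WT mice on placebo was 0.09 at 6 months (SE 0.06, 95% interval −0.04 to 0.23) and 0.03 at 10 months (SE 0.05, −0.08 to 0.14). With 4 or 5 mice a group, these intervals bound what was detectable.

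Map1b, a microtubule-associated protein of growing axons, gave the largest difference among the 80. At 6 months it had 793, 1006, 1081 and 1051 CPM in the placebo-treated WT mice and 1118, 1296, 1221 and 1103 CPM in the placebo-treated APPPS1ΔE9 mice. The APPPS1ΔE9 mice all lay above the WT mice, by 0.27 on the log2 scale (SE 0.10, adjusted p = 0.387). Map4, which is found in many cell types, did not overlap either, with 734, 695, 699 and 755 CPM against 758, 789, 805 and 769 CPM (log2 difference 0.11, SE 0.06, adjusted p = 0.50). Groups without overlap were seen for 6.07% of all genes in this comparison and for 2 of the 10 members. Map1a had 1367, 1239, 1250 and 1357 CPM in WT and 1344, 1607, 1432 and 1452 CPM in APPPS1ΔE9 mice (log2 difference 0.16, SE 0.07, adjusted p = 0.446).

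Among the kinases on placebo at 6 months, Gsk3b differed by 0.11 (SE 0.07) and Gsk3a by 0.06 (SE 0.06) on the log2 scale. Cdk5 differed by 0.02 (SE 0.05), Cdk5r1 by −0.01 (SE 0.06) and Mark1 by −0.01 (SE 0.06). On anle138b at 6 months the genotype difference was largest for Cdk5r1, whose product p35 switches on CDK5, at 0.12 (SE 0.06, adjusted p = 0.836). Mark1 did not overlap on anle138b, with 60.7, 61.2, 61.5 and 58.3 CPM in WT and 63.8, 64.6, 62.5 and 64.2 CPM in APPPS1ΔE9 mice (log2 difference 0.08, SE 0.04, adjusted p = 0.836), where 3.33% of all genes did not overlap. Over both chows, all 10 genes had a positive genotype difference at 6 months, from 0.00 for Cdk5 to 0.16 for Map1b (SE 0.06, adjusted p = 0.356), with a median of 0.05 beside −0.01 over all genes tested, of which 47.8% were positive. None passed the test, and 0.218% of all genes did.

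In the APPPS1ΔE9 mice on anle138b at 6 months, Map1b had 1074, 1018, 994 and 1149 CPM and Map1a 1313, 1311, 1177 and 1370 CPM. Compared with placebo-treated APPPS1ΔE9 mice, the log2 difference was −0.16 for Map1b (SE 0.07, adjusted p = 0.372), −0.18 for Map1a (SE 0.07, adjusted p = 0.356) and −0.13 for Mapt (SE 0.05, adjusted p = 0.354). Mapt did not overlap between these groups, which held for 6.14% of all genes. These 3 comparisons share their placebo-treated APPPS1ΔE9 mice with the genotype comparison above. In WT mice the compound gave 0.05 for Map1b (SE 0.09), −0.05 for Map1a (SE 0.06) and −0.03 for Mapt (SE 0.06). The test of the difference between these effects, the interaction of genotype and chow, gave −0.20 for Map1b (SE 0.12, adjusted p = 0.648), −0.11 for Map1a (SE 0.09, adjusted p = 0.732) and −0.09 for Mapt (SE 0.07, adjusted p = 0.720). No gene was called for this interaction by edgeR, 7.99% of all genes had an unadjusted p under 0.05, and DESeq2 called 28, none of them a member. Over both genotypes the compound gave −0.11 for Map1a (SE 0.05) and −0.08 for Mapt (SE 0.03) at 6 months, both with an adjusted p of 0.691, and 0.02 (SE 0.04) and 0.04 (SE 0.03) at 10 months. Of all genes 0.0172% were called for this effect at 6 months and 0% at 10 months, and 7.08% and 0.917% had an unadjusted p under 0.05, as did 2 and 0 members. The interaction at 10 months called 0% of all genes, and 2.3% had an unadjusted p under 0.05, none of them a member.

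**Figure D3:**
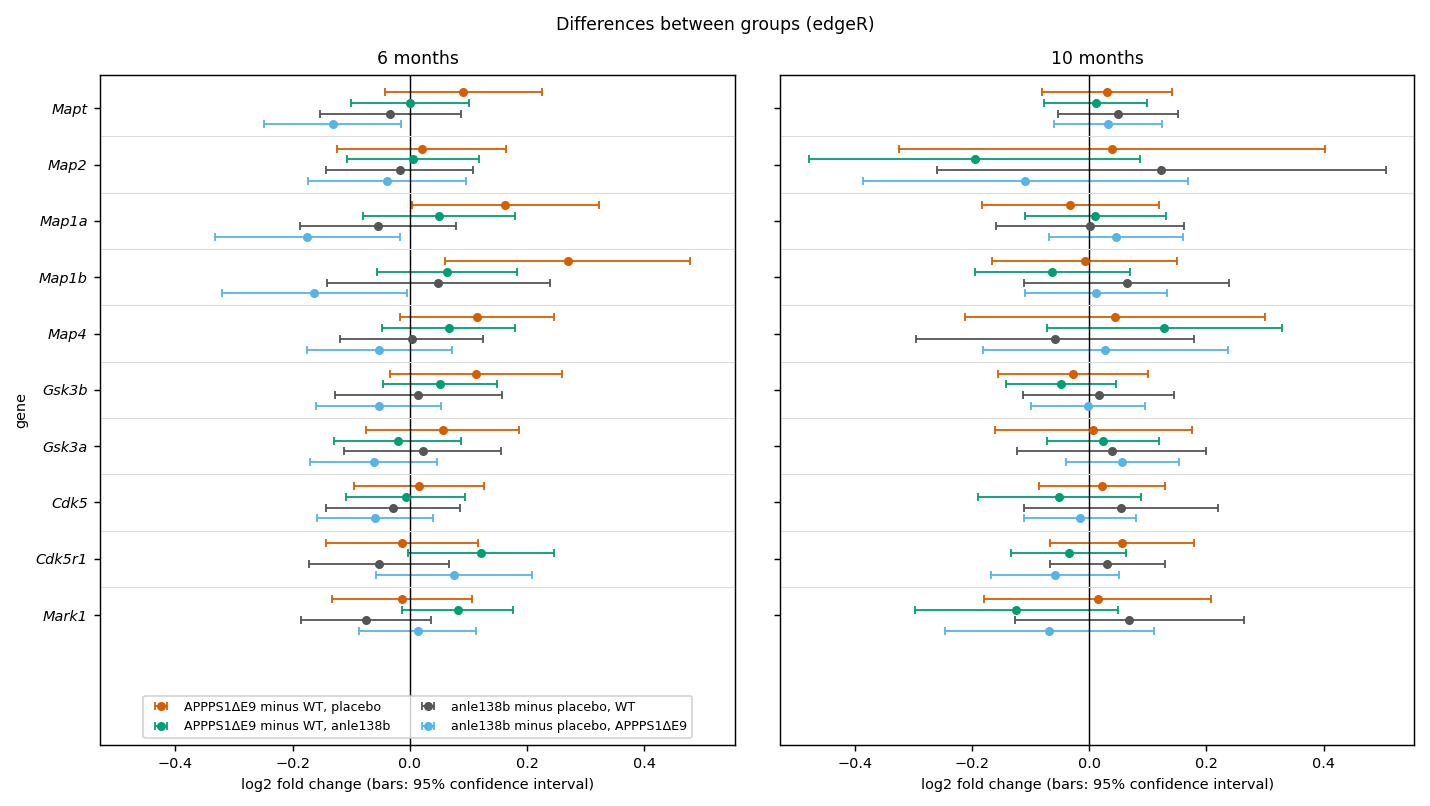
Log2 differences of the 10 genes in the 8 comparisons of 2 groups, at 6 months (left) and 10 months (right), as points with 95% confidence intervals, coloured by comparison. The interval of Map1b for APPPS1ΔE9 against WT mice on placebo at 6 months runs from 0.06 to 0.48, and at 10 months the intervals of Map2 are the widest.

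These values moved with the choroid plexus in the samples. The summed level of 6 choroid plexus markers (Ttr, Kcnj13, Folr1, Clic6, Kl and Otx2, all with reads in every mouse) was 65.2 to 719 CPM in 6 mice at 6 months and 3959 to 7950 CPM in the other 10. The 6 mice were 3 of the 4 APPPS1ΔE9 mice on placebo and 1 of 4 in each other group. In them Map1a stood at 1274 to 1607 CPM, against 1172 to 1367 CPM in the 10, Map4 at 755 to 805 against 695 to 762 CPM, Mapt at 518 to 592 against 488 to 539 CPM and Map1b at 994 to 1296 against 793 to 1118 CPM. The sum of 9 neuronal markers was 7212 to 7649 CPM in the 6 mice and 6329 to 6894 CPM in the 10, without overlap. In whole tissue, fewer cells of a type and less RNA per cell cannot be told apart. With the choroid plexus markers as a covariate, the genotype difference on placebo was 0.22 for Map1b (SE 0.10) and 0.09 for Map1a (SE 0.06). It was 0.04 for Mapt (SE 0.06) and 0.08 for Map4 (SE 0.05). The anle138b difference in APPPS1ΔE9 mice was then −0.09 for Map1b (SE 0.06) and −0.10 for Map1a (SE 0.06). For Mapt it was −0.11 (SE 0.05) and for Map4 −0.01 (SE 0.05).

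**Figure D4:**
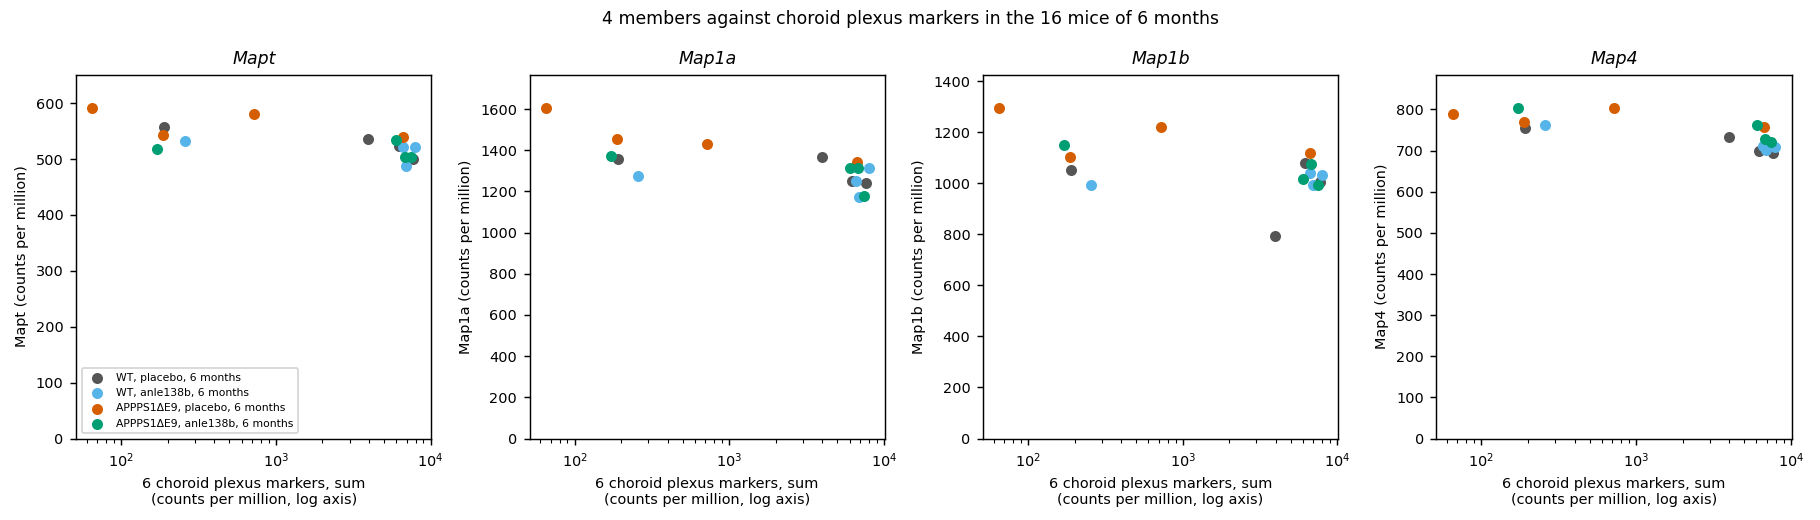
Levels of Mapt, Map1a, Map1b and Map4 (CPM) at 6 months against the summed level of 6 choroid plexus markers (CPM, log axis), with a point for each of the 16 mice, coloured by genotype and chow. The 6 mice at 65.2 to 719 CPM of the markers include 3 of the 4 APPPS1ΔE9 mice on placebo.

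Transcript length moved with the same comparison. Between placebo-treated APPPS1ΔE9 and WT mice at 6 months the median log2 difference over all genes was −0.07 for 1656 genes with merged exons under 1500 bases and 0.06 for 1481 genes of 10000 bases or more. Map1a (12166 bases), Map1b (15846), Map2 (16449) and Map4 (15143) belong to the longest class. With offsets for length and G+C content the difference of Map1b was 0.22, that of Map1a 0.09, that of Map4 0.04 and that of Mapt 0.05. With dentate markers Prox1, Dsp and C1ql2 as a covariate it was 0.35 for Map1b, 0.19 for Map1a and 0.10 for Map4 and Mapt. A term for the replicate number gave 0.28 for Map1b, 0.16 for Map1a, 0.11 for Map4 and 0.09 for Mapt. With Y-linked expression as covariate the difference was 0.12 for Map1b (SE 0.15), 0.22 for Map1a (SE 0.12), 0.15 for Map4 and 0.11 for Mapt. In this comparison 3 of the 4 WT mice and 0 of the 4 APPPS1ΔE9 mice had low Y-linked counts. Genotype and Y-linked expression can thus hardly be told apart in it. In the comparison of anle138b with placebo in APPPS1ΔE9 mice at 6 months the same offsets gave −0.09 for Map1a, −0.10 for Map1b, −0.08 for Mapt and 0.03 for Map4, in place of −0.05. Lane cannot be told apart from genotype here, nor from chow in APPPS1ΔE9 mice, whose placebo libraries at 6 months ran on lane 5 and anle138b libraries on lane 6.

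At 10 months, with plaques established, no member passed the test between genotypes either. Over both chows the log2 difference between APPPS1ΔE9 and WT mice was 0.02 for Mapt (SE 0.03), −0.01 for Map1a (SE 0.04), −0.04 for Map1b (SE 0.05), 0.09 for Map4 (SE 0.08) and −0.08 for Map2 (SE 0.11). Among the kinases it was −0.04 for Gsk3b (SE 0.03), 0.01 for Gsk3a (SE 0.04), −0.01 for Cdk5 (SE 0.04), 0.01 for Cdk5r1 (SE 0.03) and −0.06 for Mark1 (SE 0.06). In this comparison 1.43% of all genes were called, among them 4 of 6 microglia markers, which were higher in APPPS1ΔE9 mice (median log2 difference of the 6 of 0.42). The change of the genotype difference on placebo from 6 to 10 months was −0.28 for Map1b (SE 0.13, adjusted p = 0.790) and −0.20 for Map1a (SE 0.10, adjusted p = 0.812). No gene was called in that test by edgeR, 6.16% had an unadjusted p under 0.05, and DESeq2 called 14, none of them a member.

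The clearest pattern at 10 months ran between mice of the same group. Map2 had 1667, 1057, 1114, 1588 and 1146 CPM in the placebo-treated WT mice and 1497, 1570, 1123, 1819 and 1148 CPM in the anle138b-treated WT mice. The placebo-treated APPPS1ΔE9 mice had 1551, 1734, 1213, 1152 and 1114 CPM and the anle138b-treated ones 1021 to 1572 CPM with a median of 1222. Each group held mice at both ends of this range. The coefficient of variation of Map2 was 18.6% over the 22 mice at 10 months and 3.92% over the 16 mice at 6 months. For Map4 it was 11.8% against 4.96% and for Mark1 10.4% against 3.62%, whereas for Mapt it was 3.56% against 5.26%.

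Map4 ran against Map2, and Mark1 ran with it. In the same order of mice Map4 had 640, 804, 792, 632 and 785 CPM in the placebo-treated WT mice and Mark1 70.9, 61.97, 61.5, 67.2 and 62.3 CPM. In the placebo-treated APPPS1ΔE9 mice Map4 had 619, 672, 805, 891 and 792 CPM and Mark1 72.3, 78.3, 58.3, 58.9 and 59.95 CPM. The mice high in Map2 were high in Mark1 and low in Map4 in each of these groups. Dsp, a marker of dentate granule cells that is not a member and was picked after its values were seen, sorted the mice in the same way. In 9 mice with 3.97 to 43.4 CPM of Dsp, Map2 stood at 1367 to 1819 CPM, Mark1 at 67.2 to 78.3 CPM and Map4 at 594 to 698 CPM. In the 13 mice with 73.1 to 160 CPM of Dsp, Map2 stood at 1021 to 1301 CPM, Mark1 at 57.7 to 62.3 CPM and Map4 at 768 to 891 CPM. None of the 3 genes overlapped, and the 9 mice came from all groups, 2 WT on placebo, 3 WT on anle138b, and 2 APPPS1ΔE9 mice on each chow. The share of all genes without overlap between the 9 and the 13 mice was not counted, so whether these 3 stand out is not known.

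Mapt did not follow this division, with 500 to 554 CPM in the 9 mice and 498 to 570 CPM in the 13. Gsk3b (194 to 213 against 184 to 200 CPM) and Map1b (1094 to 1281 against 995 to 1169 CPM) ran in the direction of Map2, with the higher range in the 9 mice, but overlapped. The 9 and the 13 mice were divided by Dsp, so it separates them by definition. Of the 8 markers listed for dentate granule and pyramidal cells, only Prox1 did so besides Dsp. Prox1, a transcription factor of dentate granule cells, stood at 46.8 to 102 CPM in the 9 mice and 123 to 205 CPM in the 13. C1ql2 (26.2 to 55.8 against 45.3 to 111 CPM), Wfs1 (51.0 to 127 against 89.1 to 204 CPM), Spink8 (14.7 to 24.5 against 22.1 to 30.4 CPM) and Neurod6 (134 to 237 against 232 to 310 CPM) overlapped with the lower range in the 9 mice. Calb1, also found in dentate granule cells, ran the other way, with 114 to 181 against 65.6 to 132 CPM, as did Fibcd1, with 142 to 254 against 111 to 192 CPM. Mbp, the myelin basic protein gene, stood at 1012 to 1734 against 2398 to 3457 CPM and Gad1, which marks inhibitory neurons, at 340 to 417 against 280 to 334 CPM. The sum of the oligodendrocyte markers stood at 2404 to 3961 against 5204 to 7590 CPM, and Gad2 at 178 to 219 against 146 to 169 CPM. None of these ranges overlapped. The sum of all 9 neuronal markers, Gad1 and Gad2 among them, stood at 6697 to 7838 against 6141 to 7199 CPM and overlapped. The share of all genes without overlap was not counted for these markers either. At 6 months Dsp lay between 16.7 and 74.4 CPM, with Map2 between 1307 and 1479 CPM. Map4 did not run against Map2 there, nor Mark1 with it. Over the 16 mice, with the group mean taken off, Pearson's r with Map2 was 0.67 for Map4 and −0.25 for Mark1. With Prox1, Dsp and C1ql2 as a covariate the standard error of the genotype difference at 10 months was 0.05 in place of 0.11 for Map2, 0.03 in place of 0.08 for Map4, and 0.03 in place of 0.06 for Mark1. The differences were then −0.06 for Map2, 0.08 for Map4 (adjusted p = 0.259) and −0.05 for Mark1. The part of these cell types in the pattern was not tested.

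**Figure D5:**
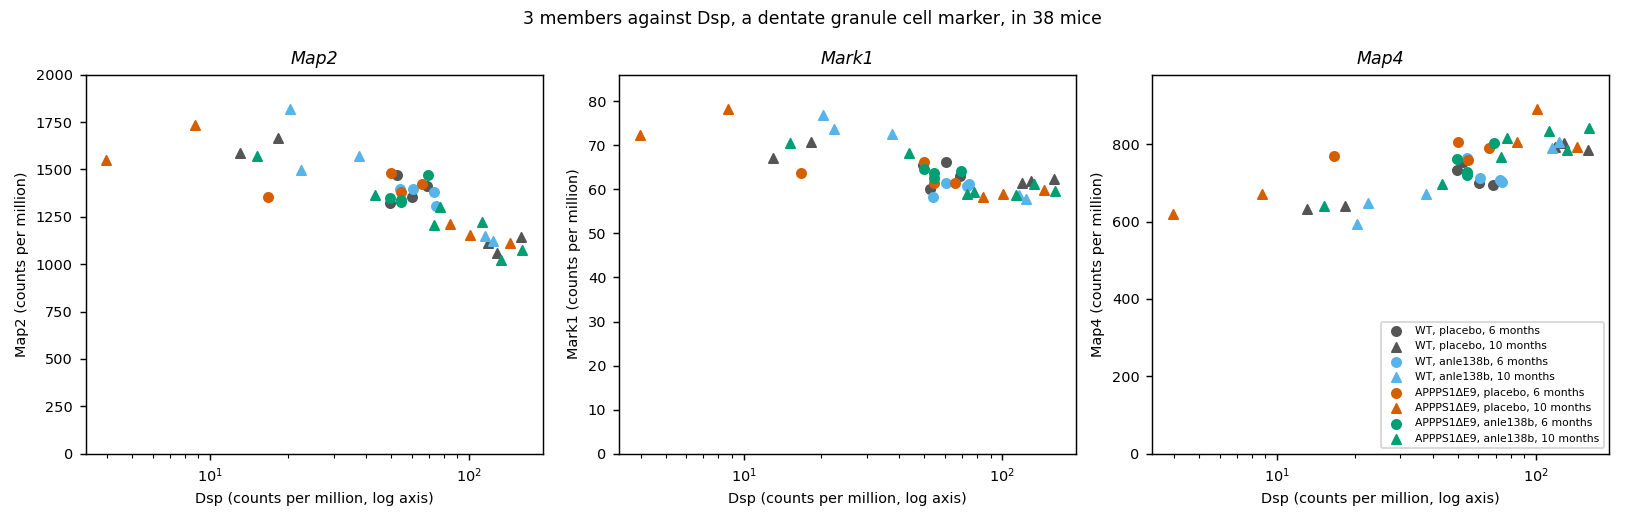
Levels of Map2, Mark1 and Map4 (CPM) against the level of Dsp, a dentate granule cell marker (CPM, log axis), in the 38 mice, coloured by genotype and chow, with circles for 6 months and triangles for 10 months. The 9 mice of 10 months at 3.97 to 43.4 CPM of Dsp lie above the other 13 for Map2 and Mark1 and below them for Map4.

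The libraries of the 2 ages were numbered as separate series, so age and sequencing run cannot be told apart. Between the ages 3 of the 10 genes passed the test over the 4 genotype and chow groups, where 61.8% of all genes were called (29.7% higher and 32.1% lower at 10 months). Cdk5r1 was lower at 10 months, with 230 ± 10.3 CPM (SD, n = 22, 214 to 250) against 247 ± 14.7 CPM (n = 16, 223 to 274) at 6 months. The ranges overlapped, and the log2 difference was −0.10 (SE 0.02, adjusted p = 0.00107). Cdk5, the kinase that p35 activates, was lower by a log2 difference of −0.06 (SE 0.03, adjusted p = 0.0567), at 109.5 ± 7.23 against 114 ± 4.23 CPM. Its call was lost with offsets for length and G+C content (−0.03, adjusted p = 0.448) and without the filter on low counts (adjusted p = 0.137). It was also lost without any one of 6 mice (adjusted p 0.102 to 0.158): mouse 4 of the anle138b-treated WT mice at 10 months and, at 6 months, mouse 2 of the anle138b-treated and mice 3 and 4 of the placebo-treated APPPS1ΔE9 mice and mice 2 and 4 of the anle138b-treated WT mice. Map1b was higher, at 1133 ± 79.4 against 1060 ± 111 CPM (log2 difference 0.10, SE 0.04, adjusted p = 0.0241).

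Mapt differed between the ages by −0.01 (SE 0.02), Map2 by −0.05 (SE 0.07), Map1a by 0.04 (SE 0.03) and Map4 by −0.01 (SE 0.05) on the log2 scale. Gsk3b differed by −0.03 (SE 0.03), Gsk3a by −0.02 (SE 0.03) and Mark1 by 0.05 (SE 0.04). A share of 3 in 10 lies below the share of all genes called. All 6 choroid plexus markers were lower at 10 months, with a median log2 difference of −3.47, as were 5 of 6 astrocyte and 3 of 6 oligodendrocyte markers. With the choroid plexus markers as a covariate Map1b differed by 0.03 (adjusted p = 0.657), and with offsets for length and G+C content by 0.02 (adjusted p = 0.561), so its call was lost. Under those offsets Mapt was called lower by −0.06 (adjusted p = 0.00544).

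The wider set of genes that act on microtubules and tau was read from lists chosen with earlier results of these data known. Of 28 other microtubule-associated proteins and regulators, 14 tubulins, 36 other tau kinases and activators, 27 tau phosphatases and their regulators and 19 genes for tau acetylation, glycosylation, chaperones and uptake, none was called between genotypes over both chows at either age, by edgeR. At 6 months 6, 1, 6, 2 and 1 of them had an unadjusted p under 0.05, beside 10.7% of all genes, and at 10 months 1, 0, 0, 0 and 0, beside 6.84%. The lowest p of each list at 6 months belonged to Anp32a, an inhibitor of the phosphatase PP2A (log2 difference −0.15, SE 0.04, adjusted p = 0.247), Stmn4, a stathmin (−0.13, adjusted p = 0.249), Brsk2, a kinase (0.09, adjusted p = 0.381), Tuba4a, an α-tubulin (0.09, adjusted p = 0.419), and Hsp90aa1, a chaperone (−0.08, adjusted p = 0.436). At 10 months they were Map10 (−0.16, adjusted p = 0.720), Ppp2r2c, a PP2A subunit (0.11, adjusted p = 0.772), Fkbp4, a co-chaperone (0.09, adjusted p = 0.820), Tuba4a (0.08, adjusted p = 0.870) and Nuak1, a kinase (0.08, adjusted p = 0.885).

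Between the ages, 29.7% of all genes were called higher and 32.1% lower, and a difference between lists was not tested. Of 14 tubulins, 13 were lower and none higher at 10 months, with a median log2 difference of −0.22 beside −0.02 over all genes; Tuba8, at −0.23 (adjusted p = 0.223), was not called. The differences of the 13 ran from −0.10 for Tubg2 to −2.22 for Tuba1c. Of 27 phosphatase genes 13 were lower, among them Ppp1ca (−0.20) and Ppp2ca (−0.19), and Ppp1cc (0.41) was higher. Of 36 kinases and activators 12 were higher and 5 lower, with Brsk2 at 0.23, Mark2 at 0.24 and Mark4 at 0.22 among the former and Prkacb at −0.22 among the latter. Of 28 other microtubule-associated proteins and regulators 9 were higher, such as Clip1 at 0.22, and 10 lower, such as Stmn3 at −0.38. Of 19 genes for acetylation, glycosylation, chaperones and uptake 8 were higher, including the acetyltransferase gene Crebbp (0.34) and the O-GlcNAc transferase gene Ogt (0.34), and 7 lower, including Hsp90aa1 (−0.39) and Fkbp4 (−0.33). The genes named between the ages were chosen after their values were seen. Between the ages, genes under 1500 bases had a median of −0.07 and those of 10000 bases or more of 0.05. Among the tubulins 12 were lower with the offsets, 12 with the choroid plexus covariate and 8 in placebo-treated WT mice alone, and among the phosphatase genes 14, 14 and 7, where 33.3%, 22.1% and 15.9% of all genes were lower.

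The genes whose level followed each member most closely across mice were found by Pearson's r over the 38 mice with the group mean taken off, among 11861 genes. These r share libraries and tissue composition and are given as descriptions. For Mapt they were Lsm11 (r = 0.74), Pclo (0.73), Gnao1 (0.73), Amph (0.72) and Dnajc5 (0.72). Map1a was most like Dnm1 (0.85) and Tcf25 (0.83), Map1b like Nav3 (0.86) and Cbfa2t2 (0.86), Gsk3b like Tmod2 (0.91) and Camsap2 (0.87), and Gsk3a like Ppp2r1a (0.87) and Spryd3 (0.83). Sars was among the genes most like Cdk5 (0.81 over all mice, 0.45 at 6 months and 0.89 at 10 months). Cdk5r1 was most like Arid1b (0.74) and Adgrl1 (0.71). For Map2 (Psd3 and Caln1), Map4 (Actr3b and Kcnab1) and Mark1 (Glp2r and Ttc7b) the mice at 10 months fell into the separate sets described above, so no r is given.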

How the data were processed

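Per the paper's methods and the labels, RNA of the mouse hippocampus was sequenced from TruSeq mRNA libraries, and the authors mapped the reads with STAR to mm10 and counted them on genes with HTSeq (intersection-nonempty). They deposited raw read counts of 48709 Ensembl genes for each of the 38 mice, without normalization or filter. The annotation release and strand setting are not given in the sources used here, and the authors' own test was DESeq2.

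The counts were filtered with filterByExpr (minimum count 10, minimum total 15), normalised with TMM and tested with edgeR 4.0.16 (estimateDisp, robust glmQLFit, glmQLFTest; R 4.3.3), each pair of groups in its own fit and interactions, means over chow or genotype, and ages in fits of 4 or 8 groups. P-values were Benjamini-Hochberg adjusted over all tested genes, with a threshold of 0.1. Standard errors are the log2 difference over the square root of F. The fits were tested on simulated data. All replicate pairs differed by more than counting noise (chi-square per degree of freedom 3.17 to 65.3); WT mice were littermates of the APPPS1ΔE9 mice per the methods, which do not say which mice shared a litter.

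Groups follow the sample titles, also where another label of 4 mice differs. Gene symbols, exon lengths and positions were read from GENCODE M21 (GRCm38, equal to mm10), where 48349 of the 48709 identifiers were found. RefSeq held promoters for 7 of the 10 genes, and the 250 bases before the start of Map4 lie inside an annotated transcript. TPM used merged exon lengths. The members, the pathway and marker lists and the tests were chosen with earlier results of these data known. The genes named are all members, App, the gene with the lowest p of each pathway list in each genotype mean, and those most like each member, and others are said to be picked after their values were seen. A gene that the rule names for Cdk5 is not reported here. Alternatives were DESeq2 1.42.0, other normalization, filter, threshold, fit, length and G+C offsets, covariates, the replicate block and leaving out each mouse. The covariates for cell markers and leaving out each mouse between the ages were added after seeing the data.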

Additional observations from a re-analysis of the deposited data

Results flagged for a closer look

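In 5 of the 80 sets of a member and a group the highest or lowest mouse lay apart from the rest by Dixon's criterion, which chance alone flags in about 1 set of 20. In the APPPS1ΔE9 mice on anle138b at 6 months, mouse 4 had 1471 CPM of Map2, against 1331 to 1351 in the others, and 216 CPM of Gsk3b, against 199 to 201. In the WT mice on anle138b at 6 months, mouse 4 had 763 CPM of Map4, against 702 to 712. Both mice were the ones with low choroid plexus markers in their groups, and the part of that tissue in these values was not tested. Mouse 2 of the APPPS1ΔE9 mice on anle138b at 6 months had 115 CPM of Cdk5, against 111 in each of the others. Mouse 1 of the WT mice on placebo at 10 months had 97.1 CPM of Gsk3a, against 119 to 125.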

How the results depend on the processing

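Outside the comparison of ages, 1 of 352 alternative counts of called members was above 0, leave-one-out counts included (range 0 to 0 in each comparison). It was that of 1 member, Map1b, for anle138b in APPPS1ΔE9 mice at 6 months with dentate granule markers as a covariate (−0.21, adjusted p = 0.0878, edgeR), where the calls among all genes went from 9 to 1224. Between the ages, 5 members were called with offsets for length and G+C content (Mapt −0.06, Map2 −0.14, Map4 −0.10, Gsk3b −0.07 and Cdk5r1, all lower) and 0 in placebo-treated WT mice alone, a fit of fewer mice. Leaving out each mouse gave 2 to 3 called members, with Map1b and Cdk5r1 called in all 38 of these fits. Mark1 was called higher with the dentate covariate (0.05, adjusted p = 0.0420) and Gsk3b lower with the choroid plexus covariate (−0.08, adjusted p = 0.0907). By longest transcript 3 of the 10 genes kept their place in the order of levels. No called value changed sign in 4000 alternative values, and 260 uncalled values did.

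The replicate numbers do not pair the mice (correlations of deviations −0.594 to 0.626 over same-numbered pairs, and no comparison in which each pair exceeded 0.1). With the replicate block the difference of Cdk5 between ages was −0.05 (adjusted p = 0.156), so that 2 members were called, and no other call of a member changed.

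Calls over all genes moved more than those of the members. For genotype on placebo at 6 months, 12 genes were called in the reported fit, 89 by DESeq2, 110 without the filter and 4 with the Y-linked covariate, and leaving out each mouse gave 6 to 205, the 205 without APPPS1ΔE9 placebo replicate 1. For genotype on anle138b at 6 months 8 became 42 with DESeq2 and 9 to 44 without 1 mouse, for the compound in APPPS1ΔE9 mice 9 became 205 and 6 to 317, the 317 without that same replicate, and for genotype at 10 months 55 and 124 spanned 15 to 158 and 20 to 265. Over both chows 38 and 252 spanned 7 to 173 and 204 to 496, and between the ages 11276 spanned 5680 to 12511. The causes were not tested. With 4 to 7 mice a group, intervals of single genes limit what was detectable, most for Map2 at 10 months (−0.32 to 0.40 on placebo).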
